A study of Caenorhabditis elegans with 2 samples.

Results

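The microRNA genes cel-mir-52, cel-mir-58a and cel-mir-80 of Caenorhabditis elegans each lay beside at least 1 binding peak of the bZIP factor ZIP-4. Proteins of the bZIP class bind DNA as dimers through a basic region next to a leucine zipper. These 3 of the 261 miRNA genes in the annotation were chosen by earlier results of these same data, in which optimal peaks were found close to them, so their peaks are described here without a test. Binding was mapped by chromatin immunoprecipitation and sequencing in whole larvae of strain OP590, genotype unc-119(tm4063); wgIs590. The transgene wgIs590 encodes ZIP-4 with TY1, EGFP and 3xFLAG tags and carries unc-119(+) as rescue of the mutation. Worms of mixed sex were L1 larvae, 6 hours of age, starved since bleaching. The labels describe an immunoprecipitation against GFP, although their antibody field names zip-4. There was 1 group of 2 biological replicates and no group without the tag, so binding of ZIP-4 and any recovery of these sites that does not depend on the tag cannot be told apart. Signal in whole larvae does not say in which cells binding took place.

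A microRNA is cut from a hairpin in a longer primary transcript by Drosha and its partner, and then by Dicer, and is loaded into an Argonaute protein. The seed, which is bases 2 to 8 of the mature RNA, pairs with target messenger RNAs, and miRNAs with alike seeds are grouped into families. mir-52 belongs to the mir-51 family, the nematode relatives of miR-99 and miR-100, and worms that lack this whole family die as embryos. mir-58a and mir-80 belong to the mir-58 family, related to bantam of Drosophila, and worms that lack several of its genes are small and lay eggs poorly. Members of both families are known as abundant worm miRNAs. The files hold no RNA measurement, so abundance could not be checked.

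The mature sequences show which other genes could carry the same targeting and so were followed below. They were read from the RefSeq genome and annotation of assembly WBcel235, which is ce11, the build of the peak lists. All are given 5′ to 3′ with the seed in capitals. The first 6 have the mir-52 seed in full.
mir-52: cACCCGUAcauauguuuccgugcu
mir-53: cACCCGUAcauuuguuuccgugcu
mir-51: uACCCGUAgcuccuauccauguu
mir-54: uACCCGUAaucuucauaauccgag
mir-55: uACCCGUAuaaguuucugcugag
mir-56: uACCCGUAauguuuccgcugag
mir-58a: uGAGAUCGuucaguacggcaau
mir-80: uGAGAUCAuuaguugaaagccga
mir-81: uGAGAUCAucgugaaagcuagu
mir-82: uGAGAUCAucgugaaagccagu
mir-58b: aGAGAUCAaccauugagauccaa
mir-58c: aGAGAUCAggcaauagguucaaa
mir-2209a: aGAGAUCAgcgguuacacuaca

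The closest relative of mir-52 was mir-53, which has the same base as mir-52 at 15 of 16 positions after the seed. mir-58a and mir-80 share bases 2 to 7 and part at base 8, and after the seed mir-80 has the base of mir-58a at 3 of 14 positions. The full seed of mir-58a was found in no other gene, and that of mir-80 in 6 genes including mir-80 itself. Neither mir-2209b nor mir-2209c, which were also on the list of the family, had bases 2 to 7 of mir-58a in an annotated mature arm. The 8 genes listed as the mir-58 family below are therefore a list by name and not by 1 shared seed.

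Each member had its strongest pooled region close to or over the hairpin, and all of these were in the optimal set, the 1290 peaks that the authors kept by their measure of repeatability between replicates. The signal value below is the score that the authors deposited for each region; its scale is not stated, and it ranged from 79.97 to 3733 in the optimal set, with a median of 133.6. Ranks run from 1 for the strongest of the 30000 regions of a list. Positions are 1-based on ce11, and offsets count from the 5′ end of the annotated hairpin gene along its own strand. The shares that serve as background were taken over all genes. An optimal summit lay within 1000 bp of 17 miRNA genes (6.51% of 261), and within 1000 bp of the 5′ end of 5.76% of 19973 protein-coding genes. Any pooled region at all, strong or weak, lay that close to 58.2% of miRNA genes. As the choice of the 3 members used these peaks, nothing is read from their count of 3 in 3.

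cel-mir-52 (WBGene00003280) occupies IV:14034008-14034107 on the plus strand. Its strongest pooled peak covered IV:14033985-14034157, with a signal value of 212.8 and rank 323. The signal value was 133.7 in replicate 1, at rank 349, and 80.8 in replicate 2, at rank 287. The summit stood at base 56 of the hairpin gene, between the arms, which end at base 40 and begin at base 58. The replicate summits stood at +55 and +51 bp, close to each other. This was the only member peak with its summit inside a hairpin, and its order in the list was nearly the same in both replicates.

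mir-52, which was chosen for its peaks, had 3 optimal summits within 1000 bp, more than any other miRNA gene. The hairpin region and the one downstream of it overlapped in all 3 lists, so 3 summits need not be 3 separate sites. The peak upstream covered IV:14033078-14033473, with its summit at -732 bp, a signal value of 98.2 and rank 961. In replicate 1 it had 74.2 and rank 836. In replicate 2 the summit within 100 bp had only 25.7 and rank 2281, while another region, with its summit at -856 bp, had 40.7 and rank 810. The upstream signal was thus among the stronger regions of both replicates, but its summit differed between them.

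The peak downstream of mir-52 covered IV:14034089-14034484, with its summit at +279 bp, a signal value of 88.8 and rank 1106. It shared 69 bases with the hairpin peak. It had 76.1 and rank 808 in replicate 1, and 22.8 and rank 3573 in replicate 2, where its q-value was 0.217. Of the 3 peaks it was the least alike in the replicates. The pooled hairpin peak was 173 bp wide, whereas 99.2% of pooled regions were 396 bp wide, and 97 optimal peaks (7.52%) were as narrow or narrower. The replicate regions with the hairpin summit were not narrow, at 396 bp in replicate 1 and 376 bp in replicate 2.

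cel-mir-58a (WBGene00003286) occupies IV:3233254-3233350 on the plus strand, in an intron of the protein-coding gene Y67D8A.2. Its only optimal peak covered IV:3233023-3233418, with the summit 33 bp upstream of the hairpin, a signal value of 92.5 and rank 1031. The region nearest to it had 57.5 and rank 1171 in replicate 1 and 35.9 and rank 1016 in replicate 2, with summits at -55 and -26 bp. Replicate 1 also held a slightly stronger region whose summit stood at -285 bp, with 60.6 and rank 1093. The peak was weak for the optimal set, of which only 20.2% had a signal value as low or lower, but all 3 lists ranked it alike.

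cel-mir-80 (WBGene00003308) occupies III:8865270-8865367 on the minus strand. Its optimal peak covered III:8865303-8865698, with the summit 134 bp upstream, a signal value of 108.5 and rank 840. In replicate 1 the same summit had 86.5 and rank 668. In replicate 2 the summit stood at -78 bp with 26.7 and rank 1997, which is below the 1290 strongest regions of that list, and its q-value was 0.106. The mir-80 peak therefore rested mainly on replicate 1, where its q-value was 0.000578.

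**Figure D1:**
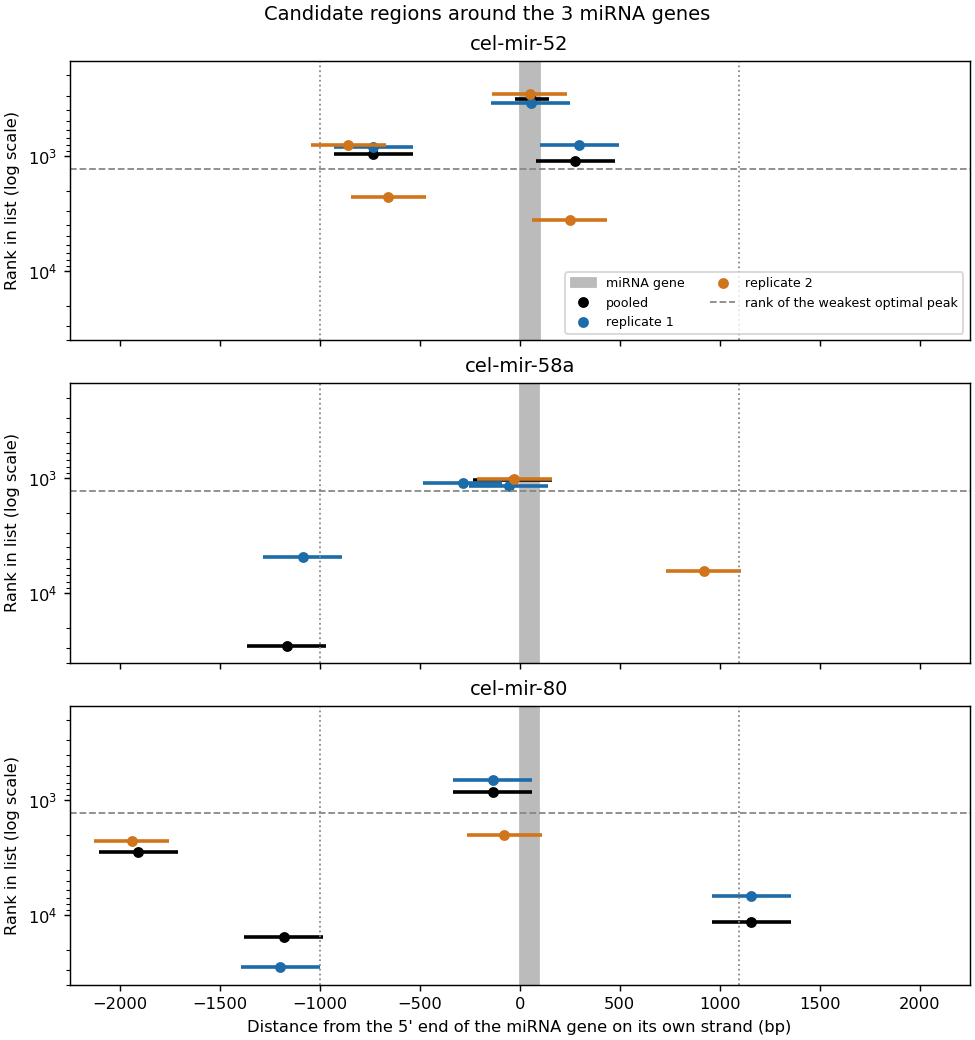
Regions within 2000 bp of the 3 miRNA genes. The x axis is distance in bp from the 5′ end of the gene on its own strand, and the y axis is rank in each list on an inverted log scale. Bars are regions, points are summits, colours are lists, the grey band is the hairpin gene, dotted lines mark 1000 bp from the gene and the dashed line marks rank 1290. All 3 lists placed the hairpin peak of mir-52 between ranks 287 and 349, while mir-80 stood at 668 in replicate 1 and 1997 in replicate 2.

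Beyond the window of 1000 bp the neighbourhood was weak. The farthest pooled summit inside it was that of mir-52 at 732 bp. The nearest outside it stood 1060 bp from mir-80, with a signal value of 37.3 and rank 11317. For mir-58a the next pooled region stood at 1163 bp, with 27.2 and rank 28729. The strongest of the outer regions was 1907 bp upstream of mir-80, with 54.5 and rank 2808, and lay at cel-mir-238, another miRNA gene on the same strand. Replicate 2 had 25.8 and rank 2247 there, at -1939 bp, and the strongest region of replicate 1 near cel-mir-238 had 38.8 and rank 2604, 72 bp upstream of that gene. The pooled region at cel-mir-238 was not in the optimal set.

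The strongest summit of each member lay outside all protein-coding promoters, a promoter being 1000 bp upstream to 200 bp downstream of any transcript start. For mir-52 the nearest starts were those of Y37A1B.7 at 9717 bp and irld-55 at 13865 bp. For mir-80 they were K01F9.2 at 11627 bp and plg-1 at 13240 bp. For mir-58a they were both of its host Y67D8A.2, at 3630 bp downstream and 10777 bp upstream. These summits were thus well beyond that distance from any annotated coding start.

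Short non-coding RNA genes of unstated function crowd the same ground. Not counting piRNA genes, which were left out of this search, there were 7 within 2000 bp of mir-52. There were 3 within 2000 bp of mir-58a and 1 beside mir-80. Y37A1B.335 overlaps the mir-52 hairpin on the opposite strand, as K01F9.6 does that of mir-80, and Y67D8A.6 overlaps that of mir-58a on the same strand. Peak position cannot tell these genes from the miRNA genes that they overlap.

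Set beside the other miRNA genes, mir-52 stood ninth by the signal value of its strongest region. cel-mir-80 took place 13 and cel-mir-58a place 15, of the 152 miRNA genes with any pooled region. The median of those 152 had rank 12084.5. Each member was chosen for an optimal peak, which only 17 miRNA genes had, so high places follow from the choice. Places count genes and not regions: cel-mir-54, cel-mir-55, cel-mir-55b and cel-mir-56 share 1 region and all stand before mir-52. The 17 genes with an optimal peak shared 13 strongest regions, of which 6 lay in promoters of protein-coding genes and 7, those of the members included, did not. The strongest, at cel-mir-4938 (2065.2, rank 3), was in the promoter of Y37B11A.3, 507 bp from the miRNA gene. That at cel-mir-5549 (299.3, rank 182) was in the shared promoter region of eef-1A.1 and rfc-4, and that at cel-mir-5595 (178.6, rank 432) in the promoter of nurf-1. Those at cel-mir-239a and cel-mir-239b (1 region, 222.2, rank 302) and at mir-2214 (140.3, rank 604) were in no coding promoter. The summits at cel-mir-4938, cel-mir-5549 and cel-mir-5595 can therefore be placed with a coding gene as well as with the miRNA gene.

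**Figure D2:**
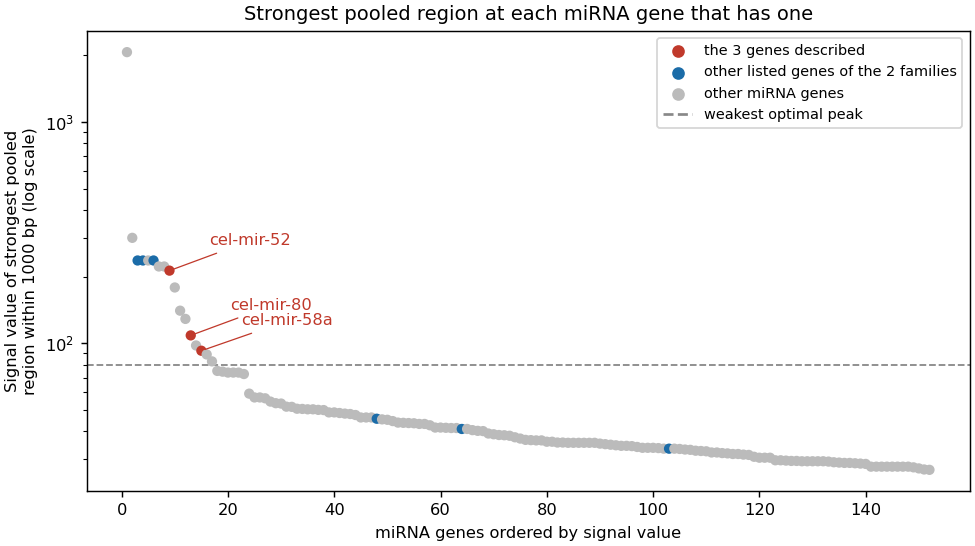
Signal value of the strongest pooled region within 1000 bp of each of the 152 miRNA genes that have one, on a log scale, ordered from high to low. Red points are the 3 genes described, blue points other listed genes of their families, and the dashed line is the weakest optimal peak at 79.97. mir-52 lies at 212.8 on the steep left part, and mir-80 (108.5) and mir-58a (92.5) lie closer to the line.

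Within the mir-51 family, peaks were found at 2 of its loci. Of its 6 genes, 4 had an optimal summit within 1000 bp, namely mir-52 and the cluster of cel-mir-54, cel-mir-55 and cel-mir-56 on X. The share over all 261 miRNA genes was 6.51%. As mir-52 was chosen for its peaks and the cluster genes share theirs, nothing is read from the count of 4. The cluster's peak covered X:13145106-13145501, with the summit 210 bp upstream of mir-54, the first gene of the cluster, and a signal value of 236.5. Its pooled rank was 270, and its replicate ranks were 352 and 205, close to those of mir-52. A second optimal peak stood at -410 bp, with 112.9 and rank 795. cel-mir-55b, which overlaps mir-55 on the other strand, falls within reach of the same peaks. cel-mir-51 had only a weak region (45.6, rank 5316), and its strongest regions in the replicates had rank 1729 in replicate 1 and, at another position, 29255 in replicate 2. cel-mir-53, with the sequence most like mir-52, had none in the pooled list. mir-52 and the cluster on X therefore differed from mir-51 and mir-53, which lie near each other on IV, although all 6 carry 1 seed. A difference between genes was not tested.

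Within the mir-58 family, 2 of the 8 listed genes had an optimal summit, and they were the 2 members. Both were chosen for their peaks, so this count is not read against the 6.51% of all 261 miRNA genes. No other listed gene of the family had an optimal summit. cel-mir-58b and cel-mir-58c shared a weak region (41.0, rank 7933) and cel-mir-2209b had 33.4 at rank 16441. cel-mir-81, cel-mir-82, cel-mir-2209a and cel-mir-2209c had no pooled region within 1000 bp. In the replicate lists, mir-81 reached rank 25351 in replicate 1 and mir-82 rank 17948 in replicate 2, and cel-mir-2209a and cel-mir-2209c lay near 1 region of replicate 2 with 16.7 and rank 11602. Each of these was in 1 replicate only. Absence from a list of fixed length says that no region ranked in it, not that no ZIP-4 was present.

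The replicates were compared by the ratio of signal values, replicate 1 to replicate 2, whose median over the 1218 optimal peaks with a summit in both was 1.89, with 5th and 95th percentiles of 1.12 and 3.39. The ratio was 1.65 at the mir-52 hairpin and 1.60 at mir-58a, both near the median. It was 3.24 at mir-80, 2.89 at the upstream peak of mir-52 and 3.33 at the downstream peak, from the 89.4th to the 94.5th percentile. The 5 member peaks were all inside the range that holds the middle 90% of optimal peaks, and 3 of them lay toward its end with more signal in replicate 1. With 2 replicates on scales that need not be the same, no error could be given for a ratio.

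**Figure D3:**
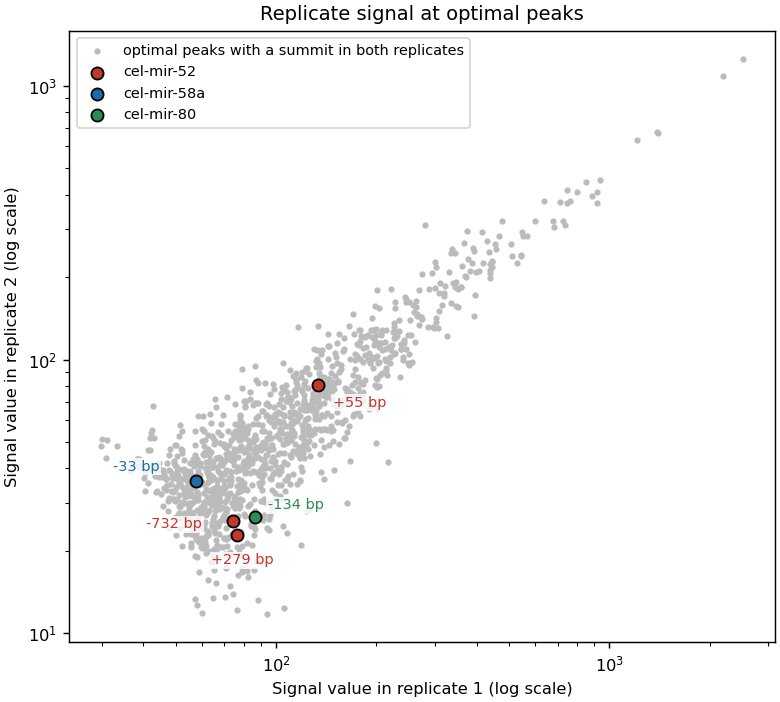
Signal value in replicate 1 (x axis) and replicate 2 (y axis), both on log scales, for the 1218 optimal peaks that had a replicate summit at most 100 bp away in each replicate (grey) and the 5 peaks of the 3 miRNA genes (coloured, labelled by summit offset from the gene). The mir-52 hairpin peak and the mir-58a peak lie in the middle of the cloud, and the other 3 lie toward its lower edge.

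By rank in the 3 lists, the promoter peaks most like each member were found among 835 optimal promoter peaks, by the summed absolute difference of log10 ranks. For mir-52 they were the shared promoter regions of F44E5.4 and F44E5.5 (pooled rank 321, then 343 and 280 by replicate; sum 0.0210) and of rps-26 and tmem-107 (sum 0.0264). For mir-58a they were those of fipp-1 and gmpr-1 (sum 0.0312) and of Y119D3B.12 and mrpl-45 (sum 0.0315). For mir-80 they were unc-96 (ranks 838, 733 and 1980; sum 0.0451) and ndx-6 (ranks 824, 675 and 2290; sum 0.0723). The measure uses 3 ranks that are not independent, since the pooled list holds the reads of both replicates. Coding promoters with a fall in rank from replicate 1 to replicate 2 like that at mir-80 exist, but unc-96 and ndx-6 were picked for it.

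The member summits held none of the 9 short sequence words searched. A set of 9 words was looked for, on either strand, in the 50 bp to each side of the 5 member summits. They were TTGCGAAA, TTACGAAA, TTGCGCAA, the looser C/EBP-type words TTGCNNAA and TTACNNAA (every match to 1 of the first 3 is also a match to 1 of these), the CREB core TGACGT, the E-box CACGTG, the GATA word AGATAA and the repeat GAGAGAGA. No word was found at any of the 5 summits, and none within 100 bp either. Of all optimal peaks, 16.8% held TTGCGAAA and 23.1% held TTGCNNAA within 50 bp, against 1.12% and 10.4% of 28526 background regions, the pooled regions that overlap no optimal peak. With 5 peaks from 3 loci, absence of a word present in 23.1% of peaks is a description and carries no test. The same window at mir-80 had 62.4% G and C, above the 95th percentile of optimal peaks (59.4%), while the hairpin window of mir-52 (45.5%) and the window of mir-58a (48.5%) were near their median of 46.5%.

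The sequences just upstream of the mir-52 and mir-58a hairpins shared a feature that was noticed on reading them, runs of the triplet CTA. They are shown from 80 and 85 bases upstream, respectively, into the hairpin, on the gene strand, with runs of 3 or more CTA in capitals. The first stretch is IV:14033928-14034063 and ends at the summit, and the second is IV:3233169-3233274 and holds the summit at -33 bp.
mir-52: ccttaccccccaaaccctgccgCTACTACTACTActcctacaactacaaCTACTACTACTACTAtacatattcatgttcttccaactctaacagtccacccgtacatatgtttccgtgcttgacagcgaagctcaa
mir-58a: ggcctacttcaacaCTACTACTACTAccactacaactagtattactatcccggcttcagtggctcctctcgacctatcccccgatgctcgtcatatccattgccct

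The word CTACTACTA was in the window of 100 bp to either side of the summit at 3 of 1290 optimal peaks (0.233%), and in 0.231% of the background regions. Those 3 were the mir-52 hairpin peak, the mir-58a peak and a peak at X:16612479-16612874 (96.7, rank 974) in the promoter of ain-1, which encodes a GW182-type protein of the miRNA silencing complex. For a miRNA gene, upstream here means upstream of the hairpin, which need not be the start of its primary transcript. The windows of miRNA and coding genes are therefore not alike. On the sense strand of the 500 bp upstream, 10 miRNA genes (3.83%) had the word, against 0.185% of 19973 protein-coding genes. Of these 10, only 2 had an optimal peak, mir-52 and mir-58a, where the runs were noticed. The other 8 included cel-mir-81 and cel-mir-82, which had no pooled region. The word was thus just upstream of the hairpin of 4 genes of the 2 families, of which 2 had a peak and 2 did not.

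A second word, CTCCGCCC, which is known to be common upstream of nematode miRNA genes, stood near the mir-80 summit. The stretch III:8865437-8865557 is shown on the gene strand, from 190 to 70 bases upstream of the hairpin, with the word in capitals, and it contains the summit at -134 bp.
mir-80: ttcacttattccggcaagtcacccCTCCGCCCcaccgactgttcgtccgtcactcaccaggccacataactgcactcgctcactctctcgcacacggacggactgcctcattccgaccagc

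CTCCGCCC was within 50 bp of the summit at 1.55% of optimal peaks and 0.445% of background regions. Among the members it was met at mir-80, from -166 to -159 bp, and also upstream of mir-52 at -458 bp, between its upstream peak and its hairpin peak. It was not found in the 500 bp upstream of mir-58a. In the families it was further upstream of mir-54 (-308 bp), mir-55 (-478 bp, the same copy) and mir-81 (-118 bp). On the sense strand of the 500 bp upstream, in the same unlike windows as above, it was in 17 miRNA genes (6.51%) and 1.94% of protein-coding genes. Of the 17 miRNA genes with an optimal peak 4 had it, against 13 of 244 without. The 4 were mir-52 and mir-80, chosen for their peaks, and mir-54 and mir-55, which share the same copy and the same peaks. Both words were chosen after the sequences had been seen, so these counts are a description.

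Genes for proteins that make miRNAs or act with them were read from a list of 28, of which 27 were matched by name in the annotation. ntl-1 was not matched by that name and was left out. An optimal peak lay in the promoter of 10 of the 27 (37.0%), where 5.71% of all protein-coding genes had one. Some earlier results of these data were known when the list was written, so the shares are a description. With promoters of 500 bp upstream the count was 5 of 27 (18.5%), where 4.54% of all protein-coding genes had one. For the enzymes that cut the hairpin, pash-1, the partner of Drosha, had 91.3 at rank 1054, while drsh-1 (Drosha) had a weak region at rank 10341 and dcr-1 (Dicer) had none. Among Argonaute genes, alg-1 had 117.3 at rank 760, and alg-5 had 153.2 at rank 542 in a region that is also upstream of the histone genes his-67 and his-68. alg-2, the Argonaute gene most like alg-1, had only rank 12779.

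The 3 highest signal values of the list were at nhl-2, ifet-1 and vig-1. nhl-2, a TRIM-NHL protein that assists the silencing complex, had 583.3 at rank 54, at -841 bp, in a promoter region shared with tag-340. ifet-1, a translational repressor that binds eIF4E, had 530.1 at rank 69, at -505 bp, in a region shared with rps-1, a ribosomal protein gene. The summits at nhl-2 and ifet-1 were thus outside promoters of 500 bp upstream. vig-1, a component of the RNA silencing complex, had 291.0 at rank 194. ain-1 had 177.3 at rank 438, at -973 bp. That peak overlaps but is not the ain-1 promoter peak at rank 974 with CTACTACTA near its summit. The peak of hrpk-1, an hnRNP K protein, had 163.5 at rank 496.

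lin-28, whose product blocks maturation of let-7, had 94.9 at rank 1000, and cgh-1, a DEAD-box helicase, had 87.6 at rank 1127. A further 7 genes had only a weaker region and 10 had none in the promoter, among them ain-2, xrn-1 and lin-41. The list was written with some earlier results of these data known, cgh-1 among them, and is a description. The hairpin peak of mir-52 ranked between those of vig-1 and ain-1, and the peaks of mir-80 and mir-58a ranked near those of alg-1 and lin-28.

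**Figure D4:**
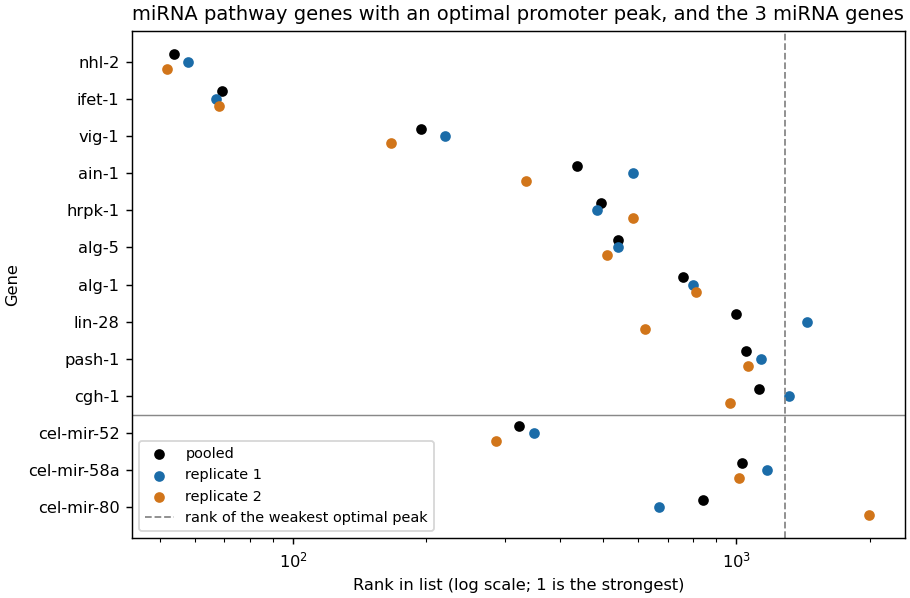
Rank in the pooled list, replicate 1 and replicate 2 (x axis, log scale, 1 is the strongest) of the promoter peak of 10 miRNA pathway genes, and below the line of the strongest peak of the 3 miRNA genes. The dashed line marks rank 1290. The ranks of nhl-2 lie between 52 and 58, and mir-80 is the gene with the widest gap between replicates, 668 against 1997.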

How the data were processed

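Data were peak lists of ChIP-seq from whole larvae in 1 group of 2 biological replicates; p-values were not computed. Both replicates and the pooled reads had a list of 30000 regions on ce11, and the authors deposited an optimal set of 1290 peaks; per the labels, shearing was by sonication. The authors deposited a signal value for each region, whose scale is not stated, a −log10 q-value, from which q-values were computed here, and the summit's distance from the region's start. Per the deposited description, each list derives from its alignments and 1 further file that all lists share; that it is the control named in the labels is not stated. Aligner, peak caller, repeatability threshold and depth: not given in the sources used here. Values therefore carry no counting error.

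Ranks, distances and counts were computed with Python 3.11.15, pandas 2.3.3 and numpy 2.4.6, and search functions were tested on simulated data. Genes came from Ensembl release 115, mature miRNAs and sequence from RefSeq (WBcel235). Summits within 100 bp were called shared between lists. The members and lists were chosen with earlier results of these data known. Text names the members, their families, neighbours, the 10 other miRNA genes with the strongest regions, pathway genes with an optimal peak, and promoters nearest in rank; other genes were named after their values were seen. Alternatives were other distances, promoter widths, motif windows, thresholds and single replicates.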

Additional observations from a re-analysis of the deposited data

How the results depend on the processing

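The strongest pooled regions at the 3 members were the same ones with windows of 200, 500 or 2000 bp. In single replicates, the strongest region within 1000 bp had ranks from 287 to 349 for mir-52, from 1016 to 1093 for mir-58a and from 668 to 1997 for mir-80. For mir-58a the 1093 belongs to the region at -285 bp of replicate 1, where the peak itself had rank 1171. Ranks in 2 replicates give no measure of how stable a rank is. The 17 miRNA genes near an optimal summit became 7 with 200 bp, 28 with 2000 bp and 11 with the stronger 645 peaks, and were 18 to 19 in single replicates. The 4 mir-51 family genes became 1 with 200 bp. The 2 mir-58 family genes became 0 with the stronger peaks, and were 1 to 2 in single replicates: without replicate 1, mir-80 was lost from the 1290 strongest regions. The 10 pathway genes became 5 with promoters of 500 bp, and were 8 to 10 in single replicates. Member peaks with a searched word rose from 0 to 2 when the 2 words chosen after seeing the data were added. Narrower or wider windows and fewer peaks bring fewer or more summits into reach by construction; other causes were not tested. No paired analysis was possible because there was 1 group.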
